A study of Arabidopsis thaliana with 10 samples.

Results

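RNA counts from dark-grown Arabidopsis thaliana seedlings that keep PIF1 were set against those from seedlings that keep PIF3, a comparison of 6 of the 30 libraries in the series. The members were the 3 libraries (A, B and C) labelled pif345, a triple mutant of PIF3, PIF4 and PIF5, and the 3 libraries labelled pif145, a triple mutant of PIF1, PIF4 and PIF5. Both genotypes therefore lack PIF4 and PIF5, and the loss of PIF3 in pif345 is exchanged for the loss of PIF1 in pif145. The wild type (WT), the quadruple mutant pifq, which lacks PIF1, PIF3, PIF4 and PIF5, and the single mutants pif1 and pif3 were used beside them, with 3 libraries each. The single mutants pif4 and pif5 and the triple mutants labelled pif135 and pif134, also with 3 libraries each, are cited for some genes. All 10 genotypes entered the joint model behind the tests. All genotypes are in the Columbia background, and the labels name the mutated genes but no alleles. Whole seedlings were harvested at 2 days: after cold treatment the seeds had 3 h of white light and a far-red pulse of 15 min, and were then left for 48 h in the dark at 21 °C. The replicates are described as biological triplicates, and whether seed lots were separate is not stated.

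The PIFs are basic helix-loop-helix transcription factors that bind the G-box and the related PBE-box in promoters and hold seedlings in the dark growth form, with an elongated hypocotyl and undeveloped plastids. Light-activated phytochromes bind them and trigger their destruction. PIF1, also called PIL5, is best known as a repressor of seed germination that acts through gibberellin and abscisic acid genes, whereas PIF3 is best known for repressing photosynthetic genes in darkness and for hypocotyl growth.

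PIF3 transcript separated the genotypes as labelled. Its level, in counts per 1000000 (CPM, scaled by TMM), was 2.62, 6.91 and 2.1 in pif345 A, B and C and 90.2, 95.2 and 130 in pif145 A, B and C. No library of one genotype came near the other, and the log2 fold change of pif345 over pif145 was -4.76 ± 0.35 (SE) with an adjusted p of 1.22e-09 in edgeR's quasi-likelihood test. PIF1 stood at 22.5, 23.8 and 38.5 CPM in pif345 against 3.04, 5.07 and 14.9 CPM in pif145. The groups did not overlap. However, pif145 C held more PIF1 RNA than pif145 A and B. It also exceeded any pifq library, where PIF1 was at 2.79 to 5.69 CPM, so its PIF1 count goes partly against its label. In every genotype of the series other than pif135, PIF1 was highest in library C, for example at 31.8 CPM in WT and 42.6 CPM in pif3. In pif135, also labelled as lacking PIF1, library A was at 12.4 CPM and B and C at 2.28 and 2.43 CPM. The PIF1 difference of 1.89 ± 0.59 had an adjusted p of 0.13. With the letter A, B or C as a replicate block it was 2.03 with an adjusted p of 0.0182, and without pif145 C it was 2.81 with an adjusted p of 0.027.

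PIF5 was below 0.4 CPM in all 6 libraries, against 6.97 to 7.39 CPM in WT. PIF4 counts do not check the labels: 52.1, 69 and 44.3 CPM in pif345 and 24.7, 39.2 and 61.7 CPM in pif145 all lay above the WT values of 10 to 13.6 CPM, although both genotypes carry a pif4 mutation. Reads come from the 3′ end of transcripts and do not show whether a transcript is complete.

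**Figure D1:**
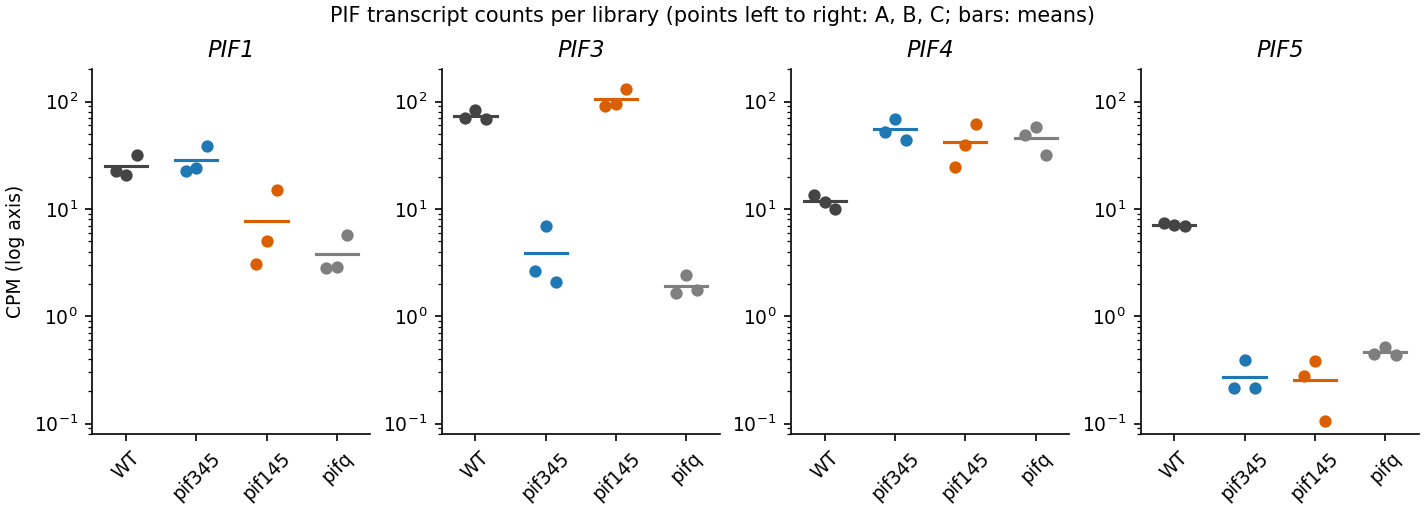
CPM (log axis) of PIF1, PIF3, PIF4 and PIF5 in WT, pif345, pif145 and pifq, with 1 point per library (A, B and C from left to right) and a bar at the mean. PIF3 is at 90.2 CPM or more in pif145 and at 6.91 CPM or less in pif345, and the PIF1 point of pif145 C, at 14.9 CPM, lies above the other pif145 points.

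Depth was 23.47 to 27.57 M counts (M, 1000000) in the pif345 libraries and 19.52 to 28.37 M in the pif145 libraries, within 18.97 to 70.81 M over the series. Replicates differed by more than counting error, with a chi-square over degrees of freedom of 28.3 to 67.6 between pif345 libraries and 114.5 to 183.9 between pif145 libraries. The 2 highest values, 182.4 and 183.9, both involve pif145 C, which stands apart from the rest, and results that rest on it are given below with and without it.

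Of 18680 genes tested, 284 (1.52%) were called at an adjusted p under 0.05. Seedlings keeping PIF1 had the higher level for 182 of them (0.974% of genes tested) and seedlings keeping PIF3 for 102 (0.546%). The changes toward pif345 were the larger ones: the median log2 fold change of the called genes was 3.03 in that direction and -1.36 in the other, against -0.03 over all genes. At least 8-fold differences were found for 93 genes higher in pif345 and for 2 higher in pif145, PIF3 and the thinly covered AT1G66100, which had 3 counts over pif345 and 101 over pif145. The libraries of the 2 genotypes overlapped for 0 of the 284 genes; 7.62% of all genes tested had no overlap with pif345 higher, and 8.29% none with pif145 higher.

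How many genes pass depends on the treatment of replicates and scaling. With the replicate block 499 genes were called (273 higher in pif345 and 226 higher in pif145), and all 284 were among them. A block by letter within each of 2 sets of libraries (WT with the single mutants, triple mutants with pifq) gave 1011 calls. Of these, 459 were higher in pif345 and 552 higher in pif145, so the direction with more calls changed. Scaling by total counts alone moved the median of all genes to 0.16, and 242 genes were then called higher in pif345 and 51 higher in pif145. Without pif145 C 168 genes were called, without pif345 A 186 and without pif345 C 171. Of these, 44, 43 and 37 were higher in pif145. In a fit of the 6 libraries alone 136 genes were called higher in pif345 and 31 higher in pif145.

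**Figure D2:**
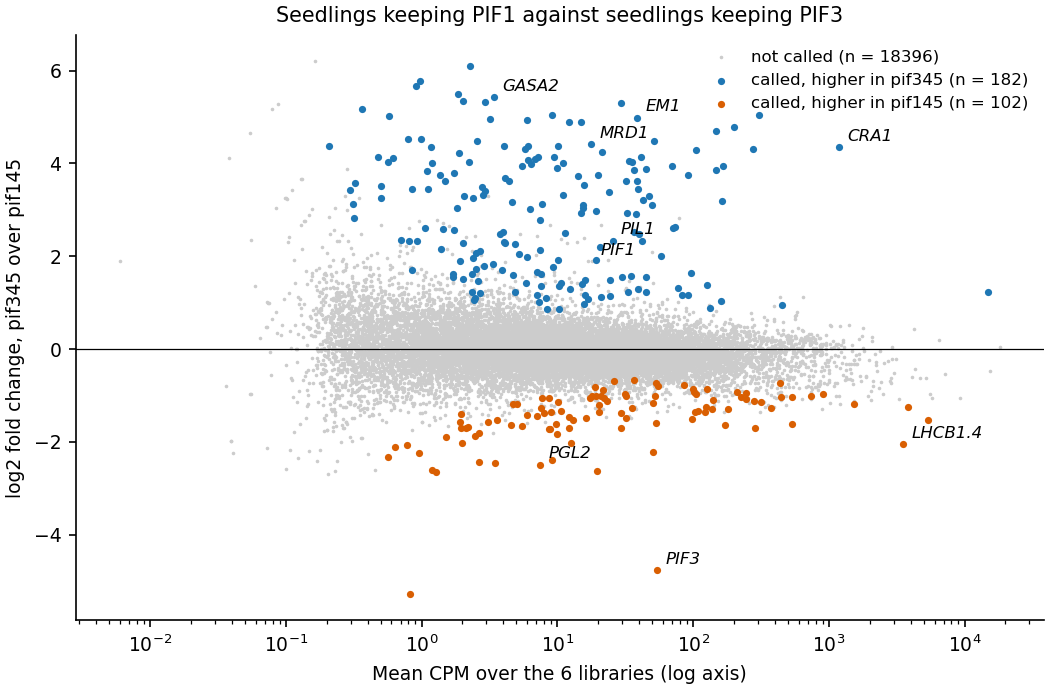
Log2 fold change of pif345 over pif145 against the mean CPM of the 6 libraries (log axis) for all 18680 genes tested, with the 182 genes called higher in pif345 in blue, the 102 called higher in pif145 in orange and the rest in grey. Blue points reach beyond 5 on the log2 scale, while orange points other than PIF3 and AT1G66100 lie above -3.

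Seed maturation genes made up the strongest difference. EM1, a late embryogenesis abundant (LEA) protein of dry seeds, was at 72, 63.9 and 88.4 CPM in pif345 and at 3.08, 2.6 and 1.32 CPM in pif145. All pif345 libraries exceeded the WT values of 41 to 44.7 CPM, and pif145 lay in the pifq range of 1.75 to 8.06 CPM or below it. The means were 74.8 ± 12.5 (SD, n = 3) and 2.34 ± 0.908 CPM (SD, n = 3), a log2 fold change of 4.99 ± 0.54 with an adjusted p of 3.72e-06 in edgeR's test.

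Of 21 genes for seed storage proteins, oleosins and LEA proteins, 14 were called higher in pif345 and 0 higher in pif145, against 0.974% and 0.546% of all genes. Their median log2 fold change was 3.19. The summed level of the list was 4130, 3590 and 6000 CPM in pif345, 305, 634 and 237 CPM in pif145, 3780 to 6410 CPM in WT and 292 to 1250 CPM in pifq. Thus pif345 overlapped WT, pif145 overlapped pifq, and pif345 and pif145 lay apart. The pif145 C library, with the most PIF1 RNA of its group, had the lowest sum.

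Within this list the 2S albumin gene SESA5, which encodes a seed storage protein, was at 190, 223 and 441 CPM in pif345 and at 3.16, 25.8 and 4.08 CPM in pif145. Its log2 fold change was 4.69 ± 0.93 with an adjusted p of 0.00408 in edgeR's test. OLEO2, an oil body coat protein, was at 211, 173 and 131 CPM in pif345 and at 10.2, 20 and 7.68 CPM in pif145. The library order within each genotype differed between these genes, yet the genotypes stayed apart. The OLEO2 difference was 3.76 ± 0.55 with an adjusted p of 0.000195. LEA4-5 was at 103 to 146 CPM in pif345 and at 17.9 to 24.2 CPM in pif145, a difference of 2.63 ± 0.39 with an adjusted p of 0.00021. The cruciferin genes CRA1, CRB and CRC, the other main seed storage proteins, were called too, with log2 fold changes of 4.36, 2.97 and 3.85.

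The 7 members not called were SESA1, SESA2, SESA3, SESA4, CRU2, OLEO3 and LEA14, whose values were 0.15 to 1.67, also on the log2 scale. Without pif145 C 9 members were called and the median was 2.96. Without pif145 A 10 were called, and the other single libraries left 12 to 15.

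The 12 genes with the largest called changes toward pif345, among genes of at least 5 CPM on average, included several known from seeds. They were AT3G05260 (a Rossmann-fold dehydrogenase family protein), AT5G35660 (a glycine-rich protein), AtMT4a (a seed metallothionein), EM1, AT2G15010 (a thionin), GASA3, ATECP31 (a seed maturation protein), M17 (an LEA protein), SESA5, AT2G28490 (a cupin), MRD1 and AT5G45690. Their log2 fold changes ran from 4.37 to 5.30. AT3G05260 was at 59.7, 41.7 and 72.2 CPM in pif345 and at 0.79, 3.13 and 0.477 CPM in pif145. AT5G35660 was at 514, 403 and 850 CPM against 19, 28.9 and 5.19 CPM. M17 was at 521, 408 and 224 CPM against 8.09, 33.1 and 0.689 CPM. In each case the lowest pif345 library was far above the highest pif145 library. All 12 stayed called when any one of the 6 libraries was left out.

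**Figure D3:**
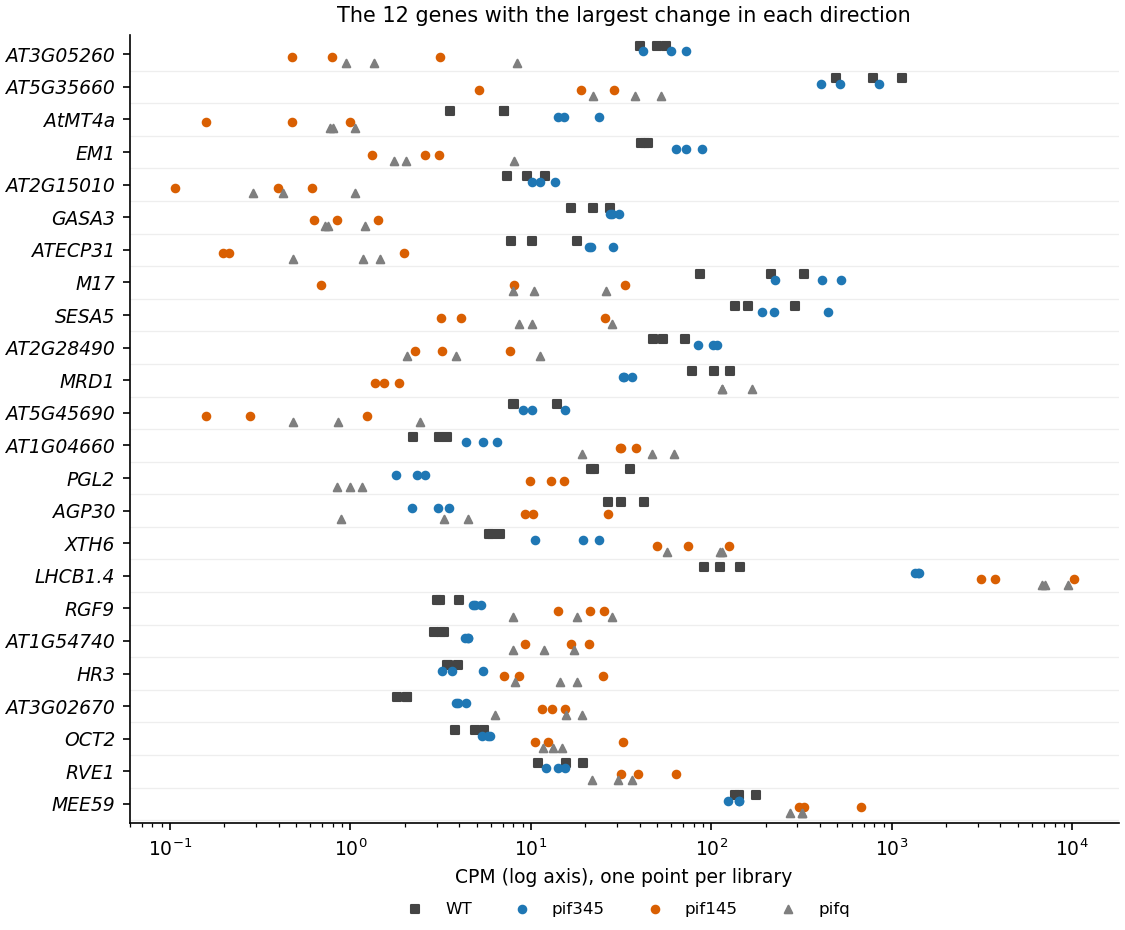
CPM per library (log axis) of the 12 genes with the largest called change toward pif345 (upper rows) and toward pif145 (lower rows), in WT (squares), pif345 (blue), pif145 (orange) and pifq (triangles). In 11 of the upper 12 rows the pifq points lie nearer to pif145 and the WT points nearer to pif345, the exception being MRD1, with pifq at 115 to 167 CPM; in the lower rows PGL2 and AGP30 stand apart, with pifq low.

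The promoters of the leading genes are shown because the G-box is the site that PIF proteins are known to bind. Each sequence is the 250 bases before the annotated start of the gene in TAIR10.1 (RefSeq), written 5′ to 3′ on the strand of the gene, here the minus strand for all 4, and capitals mark a G-box (CACGTG) or a PBE-box (CACATG or CATGTG), both strands searched. They lie at chr3:1499097-1499346 for AT3G05260, chr5:13853743-13853992 for AT5G35660, chr2:17530444-17530693 for AtMT4a and chr2:14295354-14295603 for AGP30, the last of them a gene higher in pif145.
AT3G05260: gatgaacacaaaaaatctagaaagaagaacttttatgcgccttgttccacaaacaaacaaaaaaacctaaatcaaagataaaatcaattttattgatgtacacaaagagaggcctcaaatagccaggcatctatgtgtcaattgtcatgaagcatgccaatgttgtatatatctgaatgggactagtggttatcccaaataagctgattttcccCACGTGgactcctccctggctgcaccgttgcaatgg
AT5G35660: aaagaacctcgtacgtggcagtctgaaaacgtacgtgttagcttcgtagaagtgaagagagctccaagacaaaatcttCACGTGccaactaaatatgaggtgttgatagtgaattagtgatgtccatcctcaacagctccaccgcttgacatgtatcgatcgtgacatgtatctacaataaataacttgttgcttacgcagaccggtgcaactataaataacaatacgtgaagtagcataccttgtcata
AtMT4a: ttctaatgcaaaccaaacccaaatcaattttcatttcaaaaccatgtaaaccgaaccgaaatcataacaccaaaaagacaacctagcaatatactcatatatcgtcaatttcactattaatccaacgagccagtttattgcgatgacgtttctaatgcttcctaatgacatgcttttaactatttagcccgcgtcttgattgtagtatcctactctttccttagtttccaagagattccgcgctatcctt
AGP30: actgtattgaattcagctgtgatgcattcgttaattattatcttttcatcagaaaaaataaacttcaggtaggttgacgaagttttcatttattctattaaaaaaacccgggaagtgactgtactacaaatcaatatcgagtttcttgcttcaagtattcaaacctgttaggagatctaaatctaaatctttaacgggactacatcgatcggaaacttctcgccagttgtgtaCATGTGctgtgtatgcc
The G-box of AT3G05260 begins 36 bases before the start and that of AT5G35660 begins 172 bases before it. AGP30 holds a PBE-box 17 bases before its start, and neither motif is in these windows of AtMT4a, AT1G04660 or PGL2.

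Over such windows a G-box was present in 55 of the 182 genes called higher in pif345 (30.2%) and in 5 of the 102 called higher in pif145 (4.9%). The share over 18668 genes tested that have such a window was 7.63%. For the PBE-box the shares were 19.8%, 11.8% and 11.3%. Among the 21 seed storage and LEA genes 10 held a G-box (47.6%), and among the 21 antenna genes 5 (23.8%). A match of letters does not show that a protein binds there.

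Among 13 measured regulators of germination, 2 were called, both higher in pif345, against 0.974% of all genes: GASA2 and GASA3, small gibberellin-regulated peptides. GASA3 was at 28.3, 27.3 and 30.9 CPM in pif345 and at 0.632, 1.42 and 0.847 CPM in pif145, with WT at 16.7 to 27.5 CPM and pifq at 0.724 to 1.2 CPM. Its log2 fold change was 4.90 ± 0.54 with an adjusted p of 3.72e-06 in edgeR's test. GASA2 was at 7.66, 5.96 and 6.58 CPM in pif345 and at 0.197, 0.237 and 0 CPM in pif145. It rested on 550 counts against 10, and both GASA genes were close to absent from pif145. ABI3 and ABI5, the abscisic acid response regulators of seed maturation, had values of 1.33 and 1.42 on the log2 scale with adjusted p of 0.071 and 0.098, and SOM, a direct PIF1 target in imbibed seeds, had 0.94 with an adjusted p of 0.27. The list as a whole had 8 positive and 5 negative values, from -1.52 to 5.43, with a median of 0.52. With the replicate block 3 members were called. The block within the 2 sets of libraries called 5 higher in pif345 and 1 higher in pif145.

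Of 14 gibberellin genes 2 were called, both enzymes of the late steps of gibberellin synthesis and both higher in pif345, against 0.974% of all genes. GA20OX3 was at 6.87, 5.3 and 6.51 CPM in pif345 and at 0.197, 0.379 and 0 CPM in pif145, a log2 fold change of 4.95 ± 0.67 with an adjusted p of 5.78e-05. GA3OX1 was at 10.2, 9.97 and 11.9 CPM against 3.12, 3.84 and 3.18 CPM, a difference of 1.66 ± 0.26 with an adjusted p of 0.000405. For both genes pif345 was within or just outside the WT range, and for GA3OX1 pif145 lay below pifq as well, at 4.6 to 8.49 CPM. The DELLA repressors RGA, GAI and RGL1 and the receptors GID1A, GID1B and GID1C were not called, and the list median was 0.03. DESeq2 also called 2.

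The shade-response list had 2 of 17 members called, PIL1 and PIL2, both higher in pif345, against 0.974% of all genes. PIL1, a helix-loop-helix gene that PIFs are known to activate, was at 45, 38.8 and 43.9 CPM in pif345, 9.28, 7.1 and 8.9 CPM in pif145, 45.9 to 63.2 CPM in WT and 0.802 to 1.35 CPM in pifq. Seedlings keeping PIF1 were thus just below WT, and seedlings keeping PIF3 lay between pifq and WT without touching either. The log2 fold change was 2.34 ± 0.27 with an adjusted p of 4.48e-06 in edgeR's test. PIL2, a relative, was at 7.76, 8.71 and 8.89 CPM in pif345 against 1.66, 1.47 and 2.97 CPM, a difference of 2.06 ± 0.39 with an adjusted p of 0.00274. HB-2, HFR1, IAA19 and IAA29, also on this list, had values of 0.78, 0.38, 0.37 and 1.01 on the log2 scale and were not called. Over the list 10 values were positive and 7 negative, the lowest at -0.8, with a median of 0.38. With the replicate block 4 members were called, and with the block within the 2 sets of libraries 5, all higher in pif345.

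Of 21 genes for light-harvesting antenna proteins, 3 were called, all higher in pif145 (LHCB1.4, LHCB1.5 and LHCB2.2), against 0.546% of all genes, and 20 of the 21 had negative values, with a median of -1.01. The libraries did not overlap for 17 of them, all with pif145 higher, against 8.29% of all genes. LHCB1.4, a major chlorophyll-binding protein of photosystem II, was at 1340, 1410 and 1400 CPM in pif345 and at 3720, 3110 and 10200 CPM in pif145, with WT at 91.4 to 145 CPM and pifq at 6830 to 9450 CPM. The level in pif345 was itself far above WT, and only pif145 C reached above pifq. The log2 fold change was -2.04 ± 0.47 with an adjusted p of 0.0158. LHCB1.5 and LHCB2.2 had log2 fold changes of -1.52 and -1.18 with adjusted p of 0.0414 and 0.0363. The LHCB1 genes are near-identical copies that may share reads.

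The summed antenna level was 29000, 27700 and 21900 CPM in pif345 and 55800, 40900 and 77500 CPM in pif145, against 6080 to 8200 CPM in WT and 57400 to 84000 CPM in pifq. Without pif145 C or without any one pif345 library 0 antenna members were called, without pif145 A 1 was, and without pif145 B 3 were; the list median was -0.63 without pif145 C. With the replicate block 6 members were called, and with scaling by total counts alone 1.

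All 30 nuclear genes for photosystem and electron transport subunits had negative values, from -1.34 (PSBO2) to -0.21 (PSBS), with a median of -0.71. None (0) was called by edgeR or by DESeq2, while 18 had an unadjusted p under 0.05, as did 1858 of the 18680 genes tested, and 17 had no overlap between the libraries, all with pif145 higher, against 8.29% of all genes. The block over all libraries also gave 0 calls, and the block within the 2 sets of libraries (WT with the single mutants, triple mutants with pifq) gave 9. For chlorophyll and haem synthesis (27 genes) 0 members were called, with a median of -0.12; the largest values were -1.21 for GUN4 and -1.16 for CHLM, at adjusted p of 0.29 and 0.083. The protochlorophyllide reductases PORA and PORB had values of 0.30 and -0.12. The carotenoid list (13 genes) had 0 calls and a median of -0.23. At an unadjusted p under 0.05 there were 4 and 3 such genes, and DESeq2 called 1 and 0. With the replicate block 2 of the chlorophyll and haem genes were called, both higher in pif145. With the block within the 2 sets of libraries 3 chlorophyll and haem genes and 1 carotenoid gene were called, all higher in pif145.

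HY5, a basic leucine zipper factor that promotes light-type development, was the 1 gene called among 32 light-signalling genes, against 0.546% of all genes higher in pif145; with the replicate block 4 were called, all higher in pif145. It was at 12.3, 12.2 and 11 CPM in pif345 and at 26.8, 28.7 and 16.5 CPM in pif145, with WT at 17.8 to 22.2 CPM and pifq at 8.49 to 12.8 CPM. Here pif345 resembled pifq in level and pif145 straddled WT. The difference was -1.02 ± 0.24 with an adjusted p of 0.0218, and it was lost without any one library other than pif145 C. The photoreceptor genes PHYA, PHYB, PHYC, PHYE, CRY1 and CRY2 were not called, with values from -0.64 to 0.48.

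The 12 genes with the largest called changes toward pif145 were a mixed group, with log2 fold changes from -2.63 to -1.69. They were AT1G04660 (a glycine-rich protein), PGL2 (6-phosphogluconolactonase 2), AGP30 (an arabinogalactan protein), XTH6 (a xyloglucan enzyme of cell walls), LHCB1.4, RGF9 (a root meristem growth factor peptide), AT1G54740, HR3, AT3G02670, OCT2 (a carnitine transporter family protein), RVE1 (a clock-related MYB factor) and MEE59. AT1G04660 was at 6.47, 5.45 and 4.38 CPM in pif345 and at 31, 31.5 and 38.3 CPM in pif145, with WT at 2.23 to 3.41 CPM and pifq at 19.3 to 62.2 CPM. XTH6 was at 23.9, 19.4 and 10.5 CPM against 74.1, 50 and 125 CPM, with WT at 5.87 to 6.74 CPM and pifq at 56.6 to 115 CPM. For both genes the pif145 libraries overlapped pifq and pif345 lay between WT and pif145. MEE59 was at 142, 142 and 124 CPM in pif345 and 327, 306 and 679 CPM in pif145, with WT at 136 to 176 CPM.

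PGL2 and AGP30 had another order across genotypes. PGL2 was at 1.8, 2.35 and 2.6 CPM in pif345, 9.91, 12.9 and 15.3 CPM in pif145, 21.4 to 35.5 CPM in WT and 0.841 to 1.16 CPM in pifq, so that pif345 lay near pifq and pif145 partway to WT. The difference was -2.49 ± 0.28 with an adjusted p of 3.72e-06 in edgeR's test. AGP30 was at 3.52, 2.2 and 3.06 CPM in pif345, 26.6, 9.28 and 10.3 CPM in pif145, 26.9 to 42.3 CPM in WT and 0.885 to 4.49 CPM in pifq, a difference of -2.39 ± 0.48 with an adjusted p of 0.00442. Across the series AGP30 was also low in the single mutant pif5 (1.9 to 2.93 CPM) and in the libraries labelled pif134 (0.115 to 0.192 CPM). There PGL2 was not low, at 20.8 to 32.9 CPM in pif5 and 20.3 to 32.6 CPM in pif134. In pif135 PGL2 was low, at 2.71 to 3.06 CPM, and AGP30 was at 9.53 to 17 CPM. Of the 12 genes, 8 stayed called without any one library. AGP30 was lost without pif145 A (-1.72, adjusted p 0.0712), OCT2 without pif145 C (-1.01, adjusted p 0.117), HR3 without pif145 C (-0.93, adjusted p 0.407) or without pif345 A or B, and LHCB1.4 without any one pif345 library or without pif145 C (-1.30, adjusted p 0.244).

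Of the 182 genes higher in pif345, the pifq mean was nearer to pif145 for 165 and nearer to pif345 for 17, and the WT mean was nearer to pif345 for 153. Of the 102 higher in pif145, the pifq mean was nearer to pif145 for 78 and nearer to pif345 for 24, and the WT mean was nearer to pif345 for 89. A nearer mean does not show an equal level. For 134 of the 182 genes the pif345 mean was above both the WT and pifq means, and for 47 it lay between them. All pif345 libraries were above all WT and pifq libraries for 69 of the 182. For 65 of the 102 genes the pif145 mean was above both means, and for 36 it lay between them. All pif145 libraries were above all WT and pifq libraries for 24 of the 102. Nearness was judged on the log2 scale, and these counts are descriptions of levels that were not tested.

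Of 8 heat shock genes 3 were called higher in pif345, against 0.974% of all genes. All 8 had positive values, with a median of 1.56. HSP70, a chaperone, was at 147, 110 and 177 CPM in pif345 and at 52.9, 52.8 and 34.6 CPM in pif145, with WT at 31.6 to 60.9 CPM and pifq at 31.1 to 75.2 CPM. HSP101 was at 22.2, 18 and 50.9 CPM against 7.54, 9.66 and 6.94 CPM, and HSP90.1 at 31.3, 26.3 and 50.3 CPM against 16.1, 13.1 and 9.16 CPM. The pif345 libraries were the high ones for all 3 genes, above WT and pifq too, and pif345 C was the highest. The log2 fold changes were 1.63, 1.91 and 1.49 with adjusted p of 0.0262, 0.0329 and 0.0467. The count of calls fell to 0 without pif345 C or without any one pif145 library, and it was 1 without pif345 A.

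In the glucosinolate list 2 of 12 genes were called, both higher in pif345, against 0.974% of all genes. NSP2, a nitrile specifier protein expressed in seeds, was at 14.4, 13.4 and 29.8 CPM in pif345 and at 0.592, 1.66 and 0.53 CPM in pif145, a difference of 4.37 ± 0.71 with an adjusted p of 0.000634. CYP83A1 rested on 33 counts in all over pif345 and 1 over pif145.

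Without a block, no member was called by edgeR (0 of the measured genes) in the lists for auxin (22 genes), ethylene (20), brassinosteroid (12), cell wall (21), flavonoid (8), clock (11), wounding (14) and camalexin defence (8), in those for root hairs (10), stomata (6) and seed coat and endosperm (4), and among the 8 reference genes, whose median was 0.09. DESeq2 called 0 of these 144 genes as well, and 15 had an unadjusted p under 0.05. With the replicate block 1 auxin gene was called higher in pif145 and 1 cell wall gene higher in pif345, and with the block within the 2 sets of libraries 1 ethylene, 1 clock and 1 further cell wall gene were called higher in pif145 as well. Medians of these lists ran from -0.37 (flavonoid) to 0.38 (root hair). Summed root hair markers were at 13.3, 9.97 and 16.3 CPM in pif345 and at 11.3, 17.1 and 4.29 CPM in pif145. Summed seed coat and endosperm markers were at 55, 46.2 and 99 CPM against 80.2, 95.3 and 13.7 CPM. The lowest of both sums was in pif145 C. Whether the share of seed tissue moved with the seed reserve genes was not tested, and in whole seedlings fewer cells of a type and less RNA per cell cannot be told apart.

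**Figure D4:**
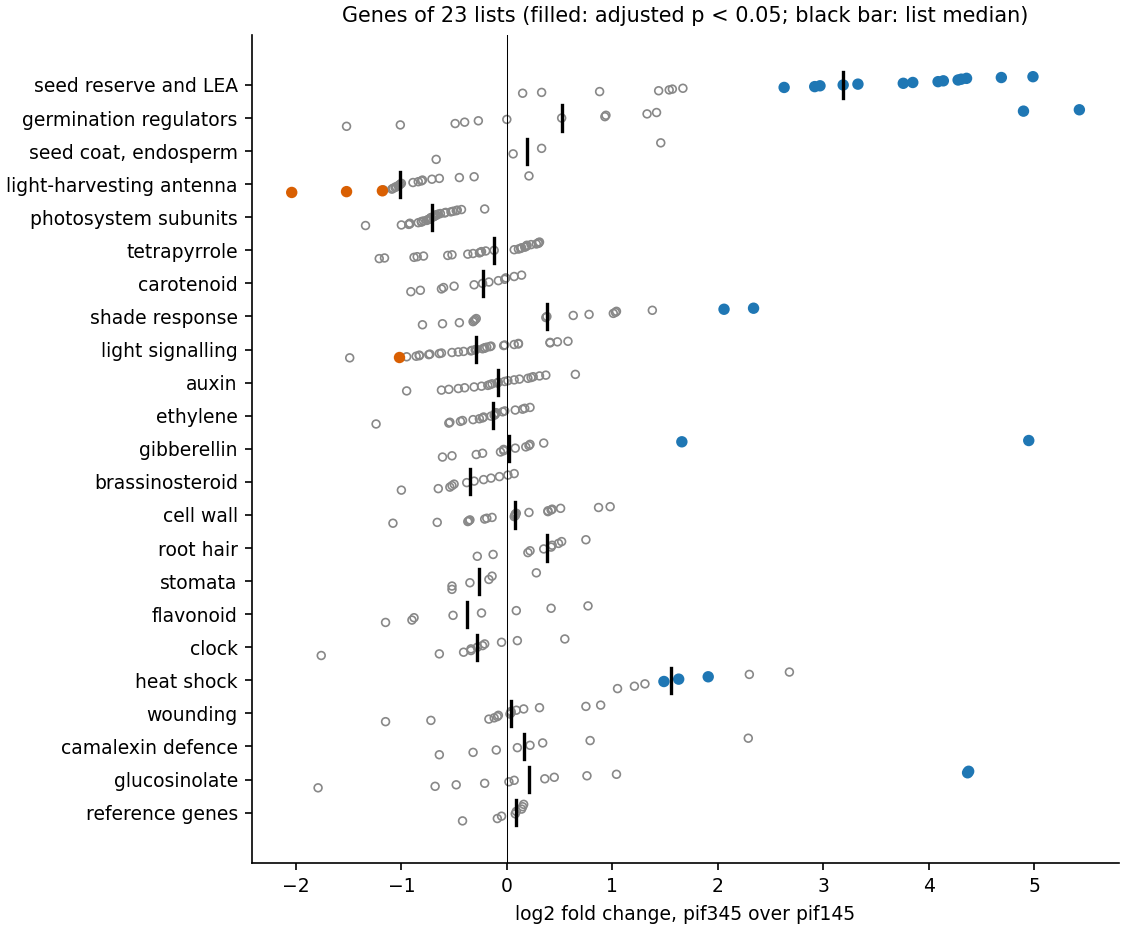
Log2 fold change of pif345 over pif145 for each measured gene (1 point per gene) of 23 lists, filled where the adjusted p was under 0.05, with a black bar at each list's median. The seed reserve list reaches to 4.99 with a median of 3.19, and the antenna list has its median at -1.01.

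The same exchange of PIF1 for PIF3 can be looked at where PIF4 and PIF5 are kept, in the single mutants. The pif3 libraries keep PIF1 and the pif1 libraries keep PIF3, and none of these 6 libraries is among the triple mutants. In pif3 against pif1, 261 genes (1.4%) were called, 162 (0.867%) higher in pif3 and 99 (0.53%) higher in pif1.

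Of the 182 genes called higher in pif345, 174 (95.6%) had the same sign in the single mutants, where 48.8% of all genes were positive. The call was made there as well for 100 of them, which is 54.9% of the 182 and 61.7% of the 162, and 0 were called the other way. The median log2 fold change of the 182 was 3.03 in the triple and 2.15 in the single mutants. Of the 102 genes called higher in pif145, 97 (95.1%) had the same sign, where 51.1% of all genes were negative. Here 14 were called in the single mutants too (13.7% of the 102 and 14.1% of the 99), with 0 called the other way, and the medians were -1.36 and -0.57.

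Of the 21 seed reserve genes 14 were called higher in pif3, against 0.867% of all genes, with 19 positive values, 2 negative and a median of 4.09. In both exchanges 13 were called; LEA4-5 was called in the triple but not in the single mutants (1.18, adjusted p 0.126), and SESA2 in the single (5.03, adjusted p 0.00149) but not in the triple mutants. The difference between the exchanges was not called for any of the 21 (0). EM1 was at 44.7, 67.6 and 21.3 CPM in pif3 and at 1.09, 1.36 and 1.9 CPM in pif1, a difference of 4.93 ± 0.55 beside 4.99 in the triple mutants. Over all 10 genotypes, EM1 stayed at 8.06 CPM or less in every library of pif1, pif145, pif135, pif134 and pifq, which are labelled as lacking PIF1, and at 18.3 CPM or more in every library of WT, pif3, pif4, pif5 and pif345. The libraries labelled pif134 nevertheless held PIF1 RNA at 56.7 to 74.5 CPM, above WT, so their PIF1 count goes against the label. As for PIF4, reads from the 3′ end do not show whether that transcript is complete. In the antenna list 7 of 21 genes were called higher in pif1, with a median of -1.23, and in the photosystem list 5 of 30, with a median of -0.81, against 0.53% of all genes. LHCB1.4 was at 269 to 573 CPM in pif3 and at 1670 to 4090 CPM in pif1. The levels in pif1 were thus above those in pif345 (1340 to 1410 CPM), and those in pif3 below them.

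Of 40 named genes called in the triple mutants, 21 were called in the single mutants and 19 were not. PIL1 was one of the latter: at 46.3, 58.3 and 80 CPM in pif3 and 40.3, 40.9 and 38.9 CPM in pif1, its difference of 0.62 ± 0.25 had an adjusted p of 0.28. The difference between the exchanges for PIL1 was not among the calls described next.

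**Figure D5:**
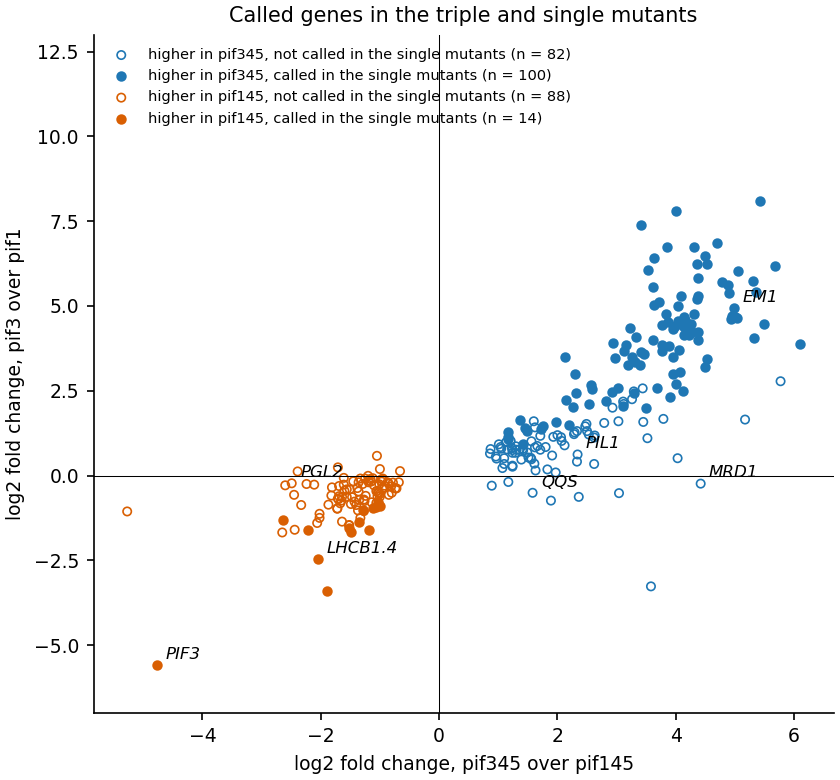
Log2 fold change of pif3 over pif1 against that of pif345 over pif145 for the 284 genes called in the triple mutants, filled where they were also called in the single mutants (100 higher in pif345 and 14 higher in pif145). Most points lie in the quadrants of equal sign, and MRD1 lies near 0 for the single mutants.

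A test of the difference between the exchanges (pif345 over pif145, less pif3 over pif1) called 10 genes (0.0535%), 7 positive and 3 negative, with 857 at an unadjusted p under 0.05. MRD1, a gene named for its response in a methionine over-accumulating mutant, had the smallest adjusted p, 2.2e-07, at a difference of 4.66. It was at 33, 32.4 and 36.4 CPM in pif345 and at 1.54, 1.37 and 1.85 CPM in pif145, but at 68.3 to 109 CPM in pif3 and 76.2 to 142 CPM in pif1. The low values recurred in pif5 (1.65 to 3.43 CPM) and pif135 (3.66 to 5.77 CPM), whereas pifq, at 115 to 167 CPM, and the libraries labelled pif134, at 111 to 120 CPM, were in or above the WT range of 77.7 to 127 CPM. PGL2 was called with -2.26 (adjusted p 0.00373), at 27.9 to 32.2 CPM in pif1 and 21.7 to 31.8 CPM in pif3. For both genes the triple mutants differed from each other while the single mutants overlapped.

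In the other 4 genes of smallest p in this test the difference lay in the single mutants. SHL1, a chromatin protein gene, was at 17, 12.7 and 12.1 CPM in pif1 against 46.9 to 53.8 CPM in pif3, and its triple mutant values of 41.7 to 54.7 and 57.1 to 77.4 CPM gave no call. AT3G43715 was at 1.24 to 2.44 CPM in pif1 and at 0.0653 CPM or less in pif3. RRTF1, a redox-responsive factor, was at 1.55 to 3.37 CPM in pif1 and at 0.107 CPM or less in pif3. ELIP1, an early light-induced protein, was at 28.1, 42 and 54.3 CPM in pif1 and at 9.91 to 13.5 CPM in pif3. With the replicate block 17 genes were called for this difference.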

How the data were processed

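Counts per locus in 30 libraries of 10 genotypes were used, with genotypes from the labels. Per the labels' protocols, 3′ ends of polyadenylated RNA were captured in a directional library from 20 µg of total RNA, with technical duplicate runs that are not separate in the columns. Per the submitters' processing notes, Bowtie 0.12.7, edgeR and TAIR10 were used; how reads were assigned to loci, and what was done with reads that align more than once, is not given in the sources used here. The deposited values are raw read counts. In 3 deposited columns (pif5 C, pif3 B, WT B) the unnamed last value was not whole, so their unit was recorded as estimated counts; that value (at most 0.0015% of a library) was left out, and 100% of the named values were whole, so nothing was rounded. Of 33322 loci, 32834 matched TAIR10.1 by locus tag, and coordinates and promoters come from it.

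One joint model of the 30 libraries was made in edgeR 4.0.16 under R 4.3.3 (TMM, filterByExpr with a minimum count of 10, quasi-likelihood test, Benjamini-Hochberg adjustment over the 18680 genes tested), without a block. A call is an adjusted p under 0.05. The ± of a log2 fold change is its standard error, worked back from the F value, and CPM are counts per 1000000 scaled by TMM. The comparisons were pif345 against pif145, pif3 against pif1 and their difference. Genes that are named are the PIF genes, the 12 largest called changes each way among genes of at least 5 CPM without overlap, up to 3 called genes of each list, and the 5 smallest p for the difference; others named beside them come from the 23 lists or were chosen after their values were seen. The comparison, the lists and the rules were chosen with earlier results of these data known. Same-letter libraries deviated together (correlations of 0.54, 0.35 and 0.17 between pif345 and pif145, and of 0.55, 0.60 and 0.47 between pif1 and pif3), so the letters pair the samples, and blocked values are given for the counts of calls, the lists and PIF1 where they change a call. Whether a letter marks a batch is not stated. The alternatives were other scalings, no filter, replicate blocks, the 6 libraries alone, leaving out the libraries labelled pif134, DESeq2 1.42.0 and leaving out each library in turn. The spread behind the p-values was estimated over the 30 libraries together, not from the 6 compared libraries alone. With 3 libraries per genotype, p-values measure the spread between these samples only.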

Additional observations from a re-analysis of the deposited data

Results flagged for a closer look

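The difference between the exchanges of PIF1 for PIF3 was called by edgeR's quasi-likelihood test for 10 genes, and these are given here because the effect differed between the triple and the single mutants. The differences, on the log2 scale, were 4.66 for MRD1, -2.26 for PGL2, -2.30 for SHL1, 5.63 for AT3G43715, 4.71 for RRTF1 and 2.33 for ELIP1. The other 4 genes were SADHU5-1, PNP-A, AT2G07687 and NAC103. MRD1 and PGL2 differed between pif345 and pif145, while SHL1, AT3G43715, RRTF1 and ELIP1 differed between pif3 and pif1. NAC103, a NAC transcription factor gene, was at 3.24, 3.77 and 2.74 CPM in pif345 and at 0.513, 0.379 and 0.265 CPM in pif145.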

How the results depend on the processing

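For pif345 against pif145, 284 genes were called. The replicate block gave 499 and the block within the 2 sets of libraries 1011. Of the 1011, 459 were higher in pif345 and 552 higher in pif145. The 6 libraries alone gave 167 without the block (136 higher in pif345 and 31 higher in pif145) and 167 with it (134 and 33). These stand against 182 and 102 in the joint model. Single libraries left out gave 168 to 254. Without pif145 A or B, 90 and 95 genes were called higher in pif145. Without pif145 C or any one pif345 library 37 to 48 were. The calls higher in pif345 ran from 124 to 159. DESeq2 called 411 genes, the DESeq2 size factors 279 and no filter 270. For pif3 against pif1 the blocks gave 669 and 1582 calls, DESeq2 473, and single libraries left out 146 to 328, against 261. For the difference between the exchanges they gave 17, 40 and 23, and 6 to 11, against 10. Of the seed storage and LEA genes 9 to 15 were called with single libraries left out. Of the antenna genes 0 to 3 were, 6 with the replicate block, 10 with the block within sets, 1 with total counts alone and 0 with the 6 libraries alone, with or without the block. The block within sets called 5 light-signalling genes higher in pif145 and 4 heat shock genes higher in pif345. Of the glucosinolate genes it called 2 higher in pif345 and 1 higher in pif145. PIF5, at 0.07 on the log2 scale and not called, turned to -0.26 without pif345 B and to -0.25 without pif145 C, and was at most 0.44 without any one library. Of 40 named genes called in pif345 against pif145, 29 stayed called without any one library and 0 lost the call under either block over all libraries or under DESeq2; 10 lost it with the 6 libraries alone, 11 with these and the block, and 4 with total counts alone. The cause of these shifts was not tested. In pif145, GASA2 (10 counts), GA20OX3 (13 counts) and CYP83A1 (1 count) are limited by depth.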

Other observations

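Of the genes called higher in pif145, the following were chosen after their values were seen, get no test as a group and stand for no pathway. ASN1, a glutamine-dependent asparagine synthetase induced in darkness, was at 560, 972 and 875 CPM in pif145, 240, 346 and 199 CPM in pif345, 187 to 232 CPM in WT and 381 to 771 CPM in pifq. BT1 and BT2, encoding BTB and TAZ domain proteins, were at 161 to 332 and 258 to 418 CPM in pif145 against 74.1 to 92.4 and 146 to 168 CPM in pif345. THA1, a threonine aldolase, was at 68.1 to 93.8 CPM in pif145 against 19.7 to 32.1 CPM in pif345 and 47.7 to 50.8 CPM in pifq. AKINBETA1, a subunit of the SnRK1 energy-sensing kinase, was at 159 to 167 CPM against 87.5 to 93.2 CPM. In the single mutants ASN1, BT1, THA1 and AKINBETA1 were not called, and BT2 was, with -0.92 (adjusted p 0.0299 in edgeR's test). Against pifq none (0) of these 5 genes was called in pif145, with adjusted p from 0.315 (BT2) to 0.694 (ASN1). The absence of a call does not show equal levels. In pifq BT1 was at 120 to 182 CPM, BT2 at 192 to 247 CPM and AKINBETA1 at 98.7 to 119 CPM. All pif145 libraries lay above all pifq libraries for BT2, THA1 and AKINBETA1, while ASN1 and BT1 overlapped pifq.

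Further genes stood out. HSFA9, a heat shock factor known from seeds, was at 1.37, 1.49 and 2.92 CPM in pif345 (158 counts in all) and rested on 2 counts over pif145. QQS, a regulator of starch content, was at 40.4, 38.6 and 77.7 CPM in pif345 and 38.6 to 70.3 CPM in pifq, at 16.4 to 19.5 CPM in pif145, and at 0.854 to 1.19 CPM in WT. Across the other genotypes QQS was at 69.3 to 172 CPM in pif135 and 10.9 to 16.5 CPM in pif4. It was at 0.24 to 0.687 CPM in the libraries labelled pif134 and at 1.6 CPM or less in pif1, pif3 and pif5. AT1G66100 had 3 counts over pif345, 101 over pif145 and levels of 3.76 to 5.9 CPM in pifq.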
